A study of Mus musculus with 2 samples.

Results

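The nuclear lamina and the LINC complex were described through 10 mouse genes: the lamin genes Lmna, Lmnb1 and Lmnb2, the inner nuclear membrane genes Emd and Tmem43, the SUN genes Sun1 and Sun2, and the nesprin genes Syne1, Syne2 and Syne3. They were chosen by name among the 55536 annotated genes of the deposited gene tables, and all 10 were found. Total RNA from the gastrocnemius, a calf muscle, had been sequenced from male B6CASTF1/J mice aged 14 days. This strain is the first-generation cross of C57BL/6J with CAST/EiJ. The series holds 1 group of 2 replicate libraries, with no treatment, mutation or second age. Each library was made from 300 ng of RNA with ERCC control RNAs added. The labels speak of several males and give both replicates the same donor record, so whether a library holds 1 animal or a pool cannot be told. Whether the 2 libraries come from different animals cannot be told either.

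The lamina is a meshwork of intermediate filament proteins, the lamins, on the inner face of the nuclear envelope. The LINC complex spans that envelope: SUN proteins of the inner membrane hold the lamina on their nuclear side and, between the membranes, grip the KASH tail of nesprins, whose other end reaches actin, microtubule motors or intermediate filaments. In skeletal muscle this bridge positions and anchors the many nuclei of each fibre, and mutations in LMNA, EMD, SYNE1, SYNE2 and TMEM43 have been linked to Emery-Dreifuss muscular dystrophy in humans.

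The libraries held 37329025 expected counts in replicate 2 and 40825601 in replicate 1. A floor of 3 counts corresponded to 0.0804 and 0.0735 CPM, the count scaled to library size, in replicates 2 and 1, and covers counting error only. Skeletal muscle content was checked with 5 myofibre markers (Acta1, Ckm, Myh4, Mylpf, Tnnt3), which summed to 97859 TPM in replicate 2 and 91129 in replicate 1. No other muscle was compared, so these markers cannot tell the gastrocnemius from other skeletal muscles. TPM is a level scaled to transcript length and to the total of the library. The tissue also held other cells: the 4 fibroblast markers summed to 2046 and 2530 TPM in replicates 2 and 1, the 3 endothelial markers to 103 and 119 TPM, and the 3 Schwann cell markers to 83.9 and 56.6 TPM. All 10 genes are active in many cell types, and in bulk tissue the contribution of each type was not tested. Fewer cells of a type and less RNA per cell cannot be told apart.

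Lmna, which encodes the A-type lamins, was the highest of the 10 genes, at 62.84 TPM in replicate 2 and 56.48 in replicate 1, a mean of 59.7 ± 4.50 TPM (SD, n = 2). Among the 11090 protein-coding genes that averaged 1 TPM or more it stood at percentile 92.2 of level. The B-type lamins, which stay farnesylated and anchored in the membrane, were far lower. Lmnb1 had 5.90 TPM in replicate 2 and 6.75 in replicate 1 (mean 6.33 ± 0.601, SD, n = 2). Lmnb2 had 4.66 TPM in replicate 2 and 4.25 in replicate 1 (mean 4.46 ± 0.290, SD, n = 2). The lowest Lmna value was therefore well above the highest value of either B-type gene.

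The ratio of Lmna to the sum of Lmnb1 and Lmnb2 was 5.95 in replicate 2 and 5.13 in replicate 1, a mean of 5.54 ± 0.577 (SD, n = 2). In a second quantification that the authors also deposited, made directly from the reads and a transcript index, it was 7.40 ± 0.779. Lmnb2 over Lmnb1 averaged 0.710 ± 0.113 (SD, n = 2), and 0.560 ± 0.102 in the second quantification. No p is given for levels and ratios, since an exact sign-flip test over 2 libraries cannot go below 0.5.

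Emd encodes emerin, a LEM-domain protein that binds lamins and the chromatin protein BAF. It had 7.72 TPM in replicate 2 and 7.88 in replicate 1 (mean 7.80 ± 0.113, SD, n = 2). Tmem43 encodes LUMA, a multi-pass membrane protein that binds emerin and lamins. It was higher, at 16.46 TPM in replicate 2 and 18.81 in replicate 1 (mean 17.6 ± 1.66, SD, n = 2), and the ratio of Emd to Tmem43 was 0.444 ± 0.0354 (SD, n = 2). Emd is X-linked and was the only member whose counts were not whole numbers, to within 0.005. The pseudogene Gm14686, which overlaps it on the same strand, was credited with 0.46 counts in replicate 2 and 1.20 counts in replicate 1.

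Sun1 and Sun2 encode the inner membrane side of the bridge. Sun2 had 27.85 TPM in replicate 2 and 36.72 in replicate 1, with a mean of 32.3 ± 6.27 TPM, the largest SD of the 10 genes (n = 2). Sun1 had 14.22 TPM in replicate 2 and 14.98 in replicate 1 (mean 14.6 ± 0.537, SD, n = 2). Sun2 exceeded Sun1 in both libraries, by a ratio of 2.20 ± 0.348 (SD, n = 2).

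The size of that ratio depended on the quantification, and Sun1 was 2.00 times as high in the second one. Over whole genes Sun2 to Sun1 was 1.46 ± 0.311 there. Counting transcripts whose coding sequence runs to the annotated SUN-domain end, it was 2.83 ± 0.480 in the main tables and 2.75 ± 0.415 in the second quantification. In that second quantification Sun1-212 and Sun1-219, short fragments with no annotated end, took 19.6% and 20.1% of Sun1, while in the main tables they took 0 and 0.868%.

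The nesprins, the cytoplasmic side, ranged over almost an order of magnitude. Syne1 had 22.29 TPM in replicate 2 and 20.39 in replicate 1 (mean 21.3 ± 1.34, SD, n = 2). Syne2 had 6.94 TPM in replicate 2 and 9.45 in replicate 1 (mean 8.20 ± 1.77, SD, n = 2). Syne3, whose product binds plectin and through it intermediate filaments, had 2.12 TPM in replicate 2 and 2.57 in replicate 1 (mean 2.35 ± 0.318, SD, n = 2). Syne1 was 2.68 ± 0.745 times Syne2 and 9.22 ± 1.82 times Syne3 (SD, n = 2).

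**Figure D1:**
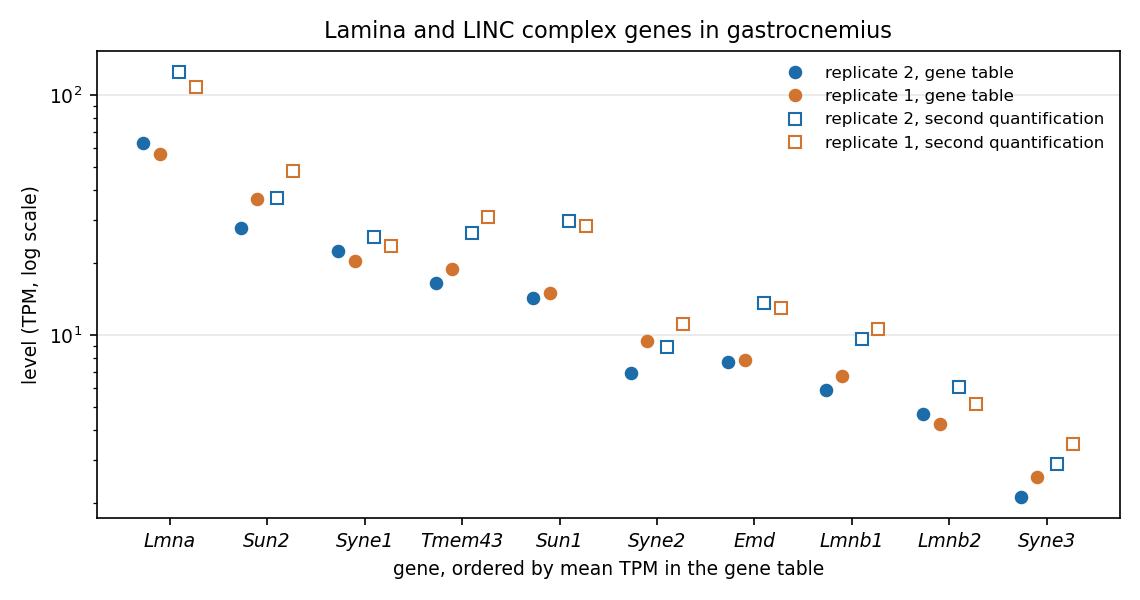
Level of each of the 10 genes in TPM on a log axis. Filled circles are the main gene table, open squares the second quantification, with replicate 2 (blue) left of replicate 1 (orange). Lmna lies at 62.84 and 56.48 TPM in the main table, and Syne3 at 2.12 and 2.57 TPM.

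In descending mean TPM the order was Lmna, Sun2, Syne1, Tmem43, Sun1, Syne2, Emd, Lmnb1, Lmnb2 and Syne3. Of the 9 neighbouring pairs, 8 had ranges over the 2 libraries that did not overlap in the main table, and 6 had ranges apart in the same order in both quantifications. Tmem43 and Sun1 overlapped in the second quantification. Syne2 and Emd overlapped in the main table, and in the second quantification Emd was the higher, at 13.6 TPM in replicate 2 and 12.9 in replicate 1, above Syne2 at 8.94 and 11.1 TPM in replicates 2 and 1. Syne1 and Tmem43 had ranges apart in both but in turned order: in the second quantification Syne1 was at 25.6 TPM in replicate 2 and 23.5 in replicate 1, below Tmem43 at 26.6 and 31.0 TPM in replicates 2 and 1. Together the 10 genes summed to a mean of 174.64 TPM, and 7 of them lay above 7.57 TPM, the median of protein-coding genes with at least 1 TPM. The second quantification gave every member a higher TPM, by 1.15 to 2.00 times, although its counts were only 1.02 to 1.14 times those of the main table.

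Lmna gives rise to lamin A and lamin C by alternative splicing and polyadenylation of a shared pre-mRNA. Their annotated coding sequences, Lmna-201 (665 residues) and Lmna-203 (574 residues), share the first 1705 bases, after which lamin A runs on for 293 bases and lamin C for 20. The bases around this parting are shown because they are what tells the mRNAs apart. The shared stretch is in lower case and the bases after it in capitals.
Lmna-201: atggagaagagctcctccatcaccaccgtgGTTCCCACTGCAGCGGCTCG
Lmna-203: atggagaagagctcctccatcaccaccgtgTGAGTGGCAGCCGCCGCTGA
Both lie on the minus strand of chromosome 3 (GRCm38). The lamin C stretch lies within 1 exon, chr3:88483297-88483346, and ends in its stop codon, and the lamin A stretch crosses a splice junction into the next exon.

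Lamin A is made as a precursor whose last residues form a CaaX box, the signal for farnesylation. Lmnb2 keeps such a box and lamin C has none. The last coding bases of Lmna-201 and of Lmnb2-204 are printed with the codons of the final 4 residues and the stop codon in capitals.
Lmna-201 end: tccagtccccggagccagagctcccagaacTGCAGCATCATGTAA
Lmnb2-204 end: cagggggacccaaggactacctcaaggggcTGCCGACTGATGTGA
In both, the capitals open with TGC, a cysteine codon, and the printed stretch spans a splice junction.

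Lamin A mRNA, Lmna-201, had 24.33 TPM in replicate 2 (the quantifier's interval was 21.8 to 25.1) and 17.77 TPM in replicate 1 (16.1 to 18.6). Lamin C mRNA, Lmna-203, had 35.53 TPM in replicate 2 (31.3 to 37.8) and 34.93 TPM in replicate 1 (30.7 to 36.5). The lamin A intervals did not overlap between the libraries, and those of lamin C did. The summed level of the transcripts with the lamin C end, Lmna-203 and the shorter Lmna-202, was 37.66 TPM in replicate 2 and 37.69 in replicate 1. Lamin A thus made up 38.7% of Lmna TPM in replicate 2 and 31.5% in replicate 1, a mean of 35.1 ± 5.13% (SD, n = 2).

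The second quantification kept the order of the libraries for lamin A, with 29.2 TPM in replicate 2 and 22.5 in replicate 1, and gave Lmna-203 28.0 TPM in replicate 2 and 29.1 in replicate 1. It divided the gene otherwise. Lmna-206, a 3-exon fragment of 117 residues with no annotated end, had 36.8 TPM in replicate 2 and 33.9 in replicate 1 there, against 0 and 0.14 TPM in the main table. Lmna-202, a form of 462 residues with the lamin C end and another start, took 20.9 ± 1.08% there and 4.14 ± 1.06% in the main table (SD, n = 2). Lamin A over lamin C, as Lmna-201 over Lmna-203, was 0.597 ± 0.124 in the main table and 0.907 ± 0.190 in the second quantification. Over all transcripts with each end the ratio was 0.559 ± 0.123 in the main table and 0.487 ± 0.0620 in the second quantification. Lamin A mRNA stayed below lamin C mRNA in both libraries by the last measure in both quantifications, while Lmna-201 over Lmna-203 was 1.04 in replicate 2 and 0.773 in replicate 1 in the second.

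**Figure D2:**
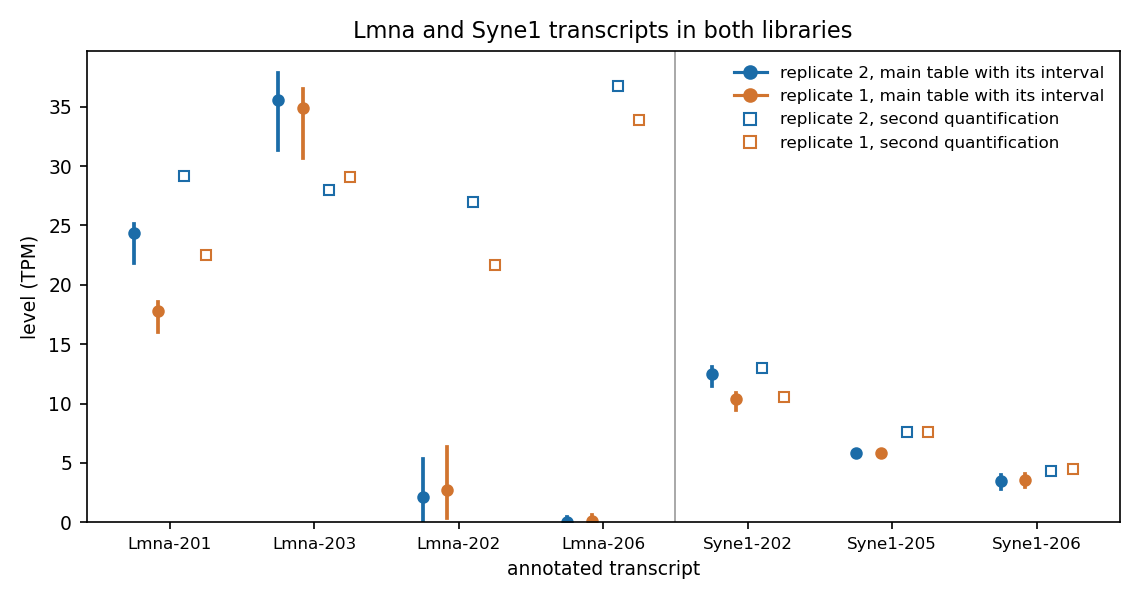
Level in TPM of 4 Lmna transcripts (left of the grey line) and 3 Syne1 transcripts in each library. Filled circles with bars are the main table with the quantifier's interval, open squares the second quantification, and replicate 2 is blue, replicate 1 orange. The bars of Lmna-201 and of Syne1-202 do not overlap between the libraries, at 24.33 against 17.77 TPM and 12.52 against 10.38 TPM.

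For Lmnb1 the single annotated coding transcript, Lmnb1-201, held 96.5 ± 4.92% of the gene's TPM (SD, n = 2), and 77.4 ± 3.06% in the second quantification. The remainder was Lmnb1-202, which has no coding sequence and held 3.48 ± 4.92% and 22.6 ± 3.06% in those tables (SD, n = 2). Lmnb2 could not be resolved into its transcripts. The longest form, Lmnb2-201, held 63.7 ± 5.15% in the main table and 4.31 ± 6.09% in the second, and Lmnb2-204, which has another start and the same end, held 27.9 ± 4.57% and 87.3 ± 2.26% (SD, n = 2). The small Lmnb2-202 and Lmnb2-203 held 3.16% and 5.23% in the main table, and 5.93% and 2.49% in the second. Emd-201, the full emerin coding sequence, held 91.4 ± 5.65% of Emd, and 61.0 ± 9.20% in the second quantification, which placed 26.7 ± 3.19% on Emd-206, annotated for nonsense-mediated decay. Emd-203, a form of 223 residues, was at 0 TPM in the main table and held 7.03 ± 9.94% in the second quantification (SD, n = 2), where only replicate 2 had any. Tmem43-201, its 1 coding transcript, held 89.8 ± 4.61%, and 69.7 ± 4.29% in the second quantification. The second quantification placed 24.3 ± 3.07% on Tmem43-203, which has no coding sequence and held 0.638 ± 0.902% in the main table (SD, n = 2).

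Sun2 was split mainly over 2 nearly identical forms, Sun2-201 (731 residues) with 57.9 ± 6.07% and Sun2-203 (729 residues) with 28.4 ± 3.88%. Sun2-203 had 7.16 TPM in replicate 2 and 11.46 in replicate 1, but the intervals of 4.51 to 9.39 and 8.64 to 14.1 overlapped. Sun2-209, a fragment of 38 residues, held 0.0408% in the main table and 7.77 ± 0.939% in the second quantification (SD, n = 2). Sun1 was spread more widely. Its longest form, Sun1-201 (913 residues), held 31.6 ± 2.02%, Sun1-205 (790 residues) 19.5 ± 3.99% and Sun1-202 (849 residues) 15.0 ± 3.69% (SD, n = 2). The incomplete fragments Sun1-211 and Sun1-217 held 10.01 ± 1.04% and 5.59 ± 7.90%, and Sun1-217 was at 0 TPM in replicate 1.

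Nesprins come in giant forms, which carry an actin-binding pair of calponin homology domains at the start and the KASH tail at the end, and in short forms that start inside the gene and keep the tail. The last coding bases of the 3 nesprins are shown because they encode the end of the KASH tail, the part held by SUN proteins, and because they define the class of KASH-ended transcripts. The codons of the last 4 residues and the stop codon are in capitals.
Syne1-205: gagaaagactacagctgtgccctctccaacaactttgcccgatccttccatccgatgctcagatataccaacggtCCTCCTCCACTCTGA
Syne2-210: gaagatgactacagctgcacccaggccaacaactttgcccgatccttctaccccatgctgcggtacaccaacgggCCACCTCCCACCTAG
Syne3-201: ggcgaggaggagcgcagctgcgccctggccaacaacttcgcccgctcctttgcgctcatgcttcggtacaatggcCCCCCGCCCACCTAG
These bases lie at chr10:5022007-5022096 on the minus strand, chr12:76109955-76110044 on the plus strand and chr12:104932165-104932254 on the minus strand (GRCm38), each within the last coding exon. Syne1 and Syne2 matched at 68 of these 90 bases without gaps, or 75.6%, with a longest shared run of 23 bases. The longest run that Syne3 shared was 10 bases with Syne1 and 12 with Syne2.

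The giant Syne1-205 has 146 exons, 27908 bases and 8799 residues. It had 5.87 TPM in replicate 2 and 5.85 in replicate 1. The short Syne1-202 has 17 exons, 3443 bases and 949 residues, and had 12.52 TPM in replicate 2 (interval 11.5 to 13.0) and 10.38 TPM in replicate 1 (interval 9.48 to 10.9). The giant was level between the libraries, and the short form was higher in replicate 2 with intervals apart. The short form held 53.5 ± 3.74% of Syne1 TPM and the giant 27.5 ± 1.66% (SD, n = 2). Syne1-206, of 1288 residues with no annotated end, held most of the remainder, 16.6 ± 1.27%.

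Molecules and reads told different things for this gene. The giant drew 4893 of 6586 counts in replicate 2 and 5207 of 6818 counts in replicate 1, or 75.3 ± 1.48% of counts, which grow with the length of an mRNA. The short form drew 17.7 ± 1.94% of counts. Per molecule the short form exceeded the giant by 2.13 in replicate 2 and 1.77 in replicate 1, a mean ratio of 1.95 ± 0.254 (SD, n = 2). In the second quantification the ratio was 1.71 in replicate 2 and 1.40 in replicate 1, a mean of 1.56 ± 0.221.

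What sets the short form apart is small: 96.8% of its 2850 coding bases are shared with the giant, and they make up 10.5% of the giant's. It opens with 90 coding bases of its own, in capitals here, before entering the shared sequence.
Syne1-202 start: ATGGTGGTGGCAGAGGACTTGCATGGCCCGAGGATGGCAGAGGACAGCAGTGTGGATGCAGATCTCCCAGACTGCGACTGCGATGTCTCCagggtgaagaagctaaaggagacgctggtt
It also lacks exon 137 of the giant, 69 bases, shown in capitals between its neighbours as they stand in Syne1-205.
Syne1-205 exon absent from Syne1-202: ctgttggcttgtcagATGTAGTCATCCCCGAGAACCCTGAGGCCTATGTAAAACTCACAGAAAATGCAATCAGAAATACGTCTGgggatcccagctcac
Both stretches lie on the minus strand of chromosome 10 (GRCm38) and cross splice junctions. A short KASH-ended nesprin-1, nesprin-1 alpha 2, is well known from skeletal muscle nuclei, but the annotation does not use that name. No other KASH-ended short form of Syne1 with a complete coding sequence is annotated. How reads of such forms, if present, would be divided was not tested.

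By TPM share the leading Syne2 transcript was annotated for decay, while that of Syne1 was the short KASH-ended form. The full-length form held 27.5 ± 1.66% of Syne1 TPM (SD, n = 2) and a like share of Syne2 TPM. The transcripts with the full coding sequence, led by Syne2-210 (115 exons, 21704 bases, 6870 residues), had 1.79 TPM in replicate 2 and 1.94 in replicate 1, or 23.2 ± 3.74% of the gene's TPM (SD, n = 2). A larger share, 31.0 ± 5.09%, fell on Syne2-206, a 17-exon transcript of 3606 bases annotated for nonsense-mediated decay, at 2.40 TPM in replicate 2 and 2.59 in replicate 1. Syne2-206 over the full-length transcripts was 1.34 in replicate 2 and 1.34 in replicate 1, and 1.10 ± 0.0601 in the second quantification (SD, n = 2). By counts the full-length transcripts held 71.4%. KASH-ended fragments with an incomplete start held 9.68 ± 0.378% and fragments incomplete at the end 17.3 ± 1.49%. Syne2-212, a 5-exon fragment incomplete at both ends, had 0.51 TPM in replicate 2 and 1.74 in replicate 1. Of the other fragments Syne2-209 held 12.3%, Syne2-208 6.80% and Syne2-213 5.01% in the main table, and each was under 5% in the second quantification. There, Syne2-211 and Syne2-214, both at 0 TPM in the main table, held 17.8% and 6.36%. No annotated Syne2 transcript combined a complete short coding sequence with the KASH end.

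All 3 annotated Syne3 transcripts have the KASH end, and 2 of them made up nearly all of the gene. Syne3-201 (888 residues) had 1.22 TPM in replicate 2 and 1.85 in replicate 1, and Syne3-202 (975 residues), which starts elsewhere, had 0.90 TPM in replicate 2 and 0.72 in replicate 1. Syne3-202 over Syne3-201 was 0.563 ± 0.246 (SD, n = 2), and 0.709 ± 0.208 in the second quantification. The intervals of each form overlapped between the libraries.

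**Figure D3:**
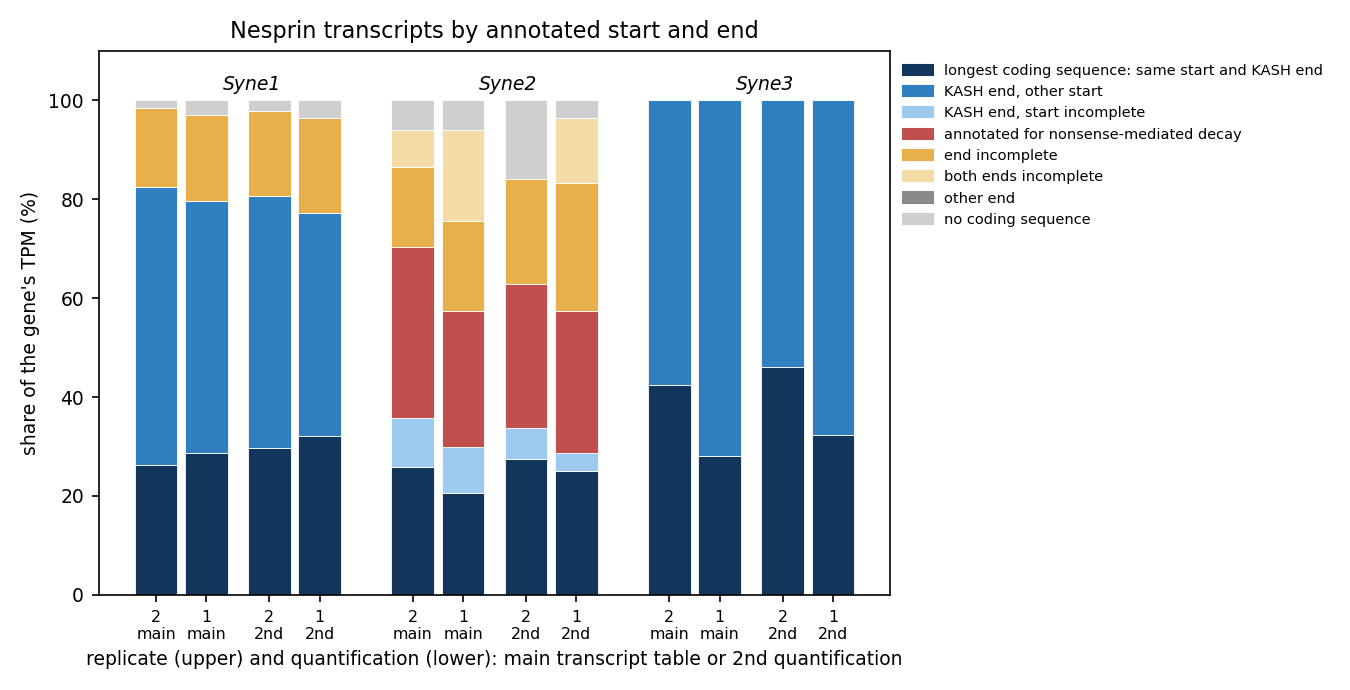
Share of each nesprin gene's TPM held by classes of annotated transcripts, in percent. Each gene has 4 bars: replicates 2 and 1 in the main transcript table, then replicates 2 and 1 in the second quantification. Dark blue is the longest coding sequence, mid blue another start with the KASH end, which holds 53.5% of Syne1, and red the transcripts annotated for decay, which hold 31.0% of Syne2.

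Summed over transcripts with the KASH end, Syne1 had 18.39 TPM in replicate 2 and 16.23 in replicate 1, Syne2 2.48 and 2.83 TPM, and Syne3 2.12 and 2.57 TPM. Syne2-206, annotated for decay, was left out of these sums, at 2.40 TPM in replicate 2 and 2.59 in replicate 1. Its annotated span, chr12:76087760-76110926, covers the printed Syne2 KASH bases. Whether its reads came from KASH-ended mRNA was not tested. Of the KASH-ended nesprin mRNA summed in this way, Syne1 held 77.5 ± 3.50% (SD, n = 2), and 75.4 ± 3.25% in the second quantification. Syne1-202 by itself held 51.2 ± 4.57%, and 45.8 ± 4.53% in the second quantification. Syne2 held 11.9 ± 1.62% and Syne3 10.6 ± 1.88%. KASH-ended nesprin mRNA over SUN-ended mRNA was 0.650 in replicate 2 and 0.513 in replicate 1 (mean 0.581 ± 0.0965, SD, n = 2), so SUN mRNA was the more abundant side in each library. The second quantification gave 0.510 ± 0.0828.

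The only difference that the series allows is between its libraries, so it describes their spread and no condition. Counts were compared gene by gene with a two-sided exact binomial test, given library sizes scaled by edgeR's TMM, with Benjamini-Hochberg adjustment over 17245 genes with at least 10 counts. Of the 10 members 4 passed an adjusted p of 0.05, 2 in each direction, and the same 4 passed in the second quantification. Over all tested genes 21.5% passed, 10.9% higher in replicate 2 and 10.6% higher in replicate 1. In the second quantification 21.5% of genes passed, 11% higher in replicate 2 and 10.4% higher in replicate 1. Among the 7586 genes with at least 643 counts, the number of the lowest member, 35.3% passed, so the members' count was near that of genes of like depth. The median log2 difference, replicate 2 minus replicate 1, was -0.04 for the members and -0.01 for all tested genes, and the median absolute difference was 0.105 and 0.177.

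Lmna had 4459 counts in replicate 2 and 4128 counts in replicate 1, a log2 difference of 0.26 (adjusted p = 1.1e-15, exact binomial test). Sun2 had 2913 counts in replicate 2 and 3977 counts in replicate 1, a log2 difference of -0.30 (adjusted p = 1e-15, exact binomial test). Lmna was higher and Sun2 lower in replicate 2, and in TPM their log2 differences were 0.15 and -0.40. Syne1, with 6586 counts in replicate 2 and 6818 in the deeper replicate 1, was higher in replicate 2 by 0.10 on the log2 scale (adjusted p = 0.00043, exact binomial test). Syne3, with 271 counts in replicate 2 and 372 in replicate 1, was lower in replicate 2, with a log2 difference of -0.30 (adjusted p = 0.04, exact binomial test; 0.057 with no minimum count).

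The other 6 members had log2 differences between -0.11 and 0.17 and did not pass. Syne2 differed more in level than in counts: its TPM was 6.94 in replicate 2 and 9.45 in replicate 1, a log2 difference of -0.45, while its scaled counts differed by -0.11 (adjusted p = 0.10, exact binomial test). Among its transcripts Syne2-212, with 7.50 counts in replicate 2 and 27.05 in replicate 1, differed most in TPM. Lmnb1, Lmnb2, Emd, Tmem43 and Sun1 had adjusted p-values of 0.24 to 0.96 in the exact binomial test.

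Scaling by the ERCC totals, which held 0.881% of counts in replicate 2 and 0.731% in replicate 1, moved the median of all tested genes to -0.30 on the log2 scale. Under it 8 members passed, all lower in replicate 2, against 52.5% of all genes, 1.72% higher and 50.8% lower in replicate 2. Lmna stood at -0.03, above that median, and Sun2 remained lower. The order of the members by their difference is the same under either scaling, since every gene is moved alike.

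At the level of transcripts, 83 are annotated for the 10 genes and 5 were listed at 0 TPM in both libraries and both quantifications. Of the 83, only Lmna-201 and Syne1-202 had intervals that did not overlap between the libraries, both higher in replicate 2. Over all 141862 annotated transcripts 2.09% were apart in this way. Among the 22 member transcripts that averaged 1 TPM or more the same 2 were apart, against 9.49% of all transcripts at that level. Markers of several cell types moved between the libraries too. All 5 myofibre markers and the 3 erythroid markers (1347 TPM in replicate 2 and 977 in replicate 1, summed) passed as higher in replicate 2. Of the 4 fibroblast markers 3 passed as higher in replicate 1 and 1 as higher in replicate 2. The 2 adipocyte markers passed as higher in replicate 2, at a summed 4.31 TPM there and 0.64 TPM in replicate 1. Of the dividing cell markers 2 of 3 passed as higher in replicate 1, at a summed 9.75 TPM in replicate 2 and 13.1 in replicate 1. Their part in the differences of Lmna, Sun2, Syne1 and Syne3 was not tested.

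**Figure D4:**
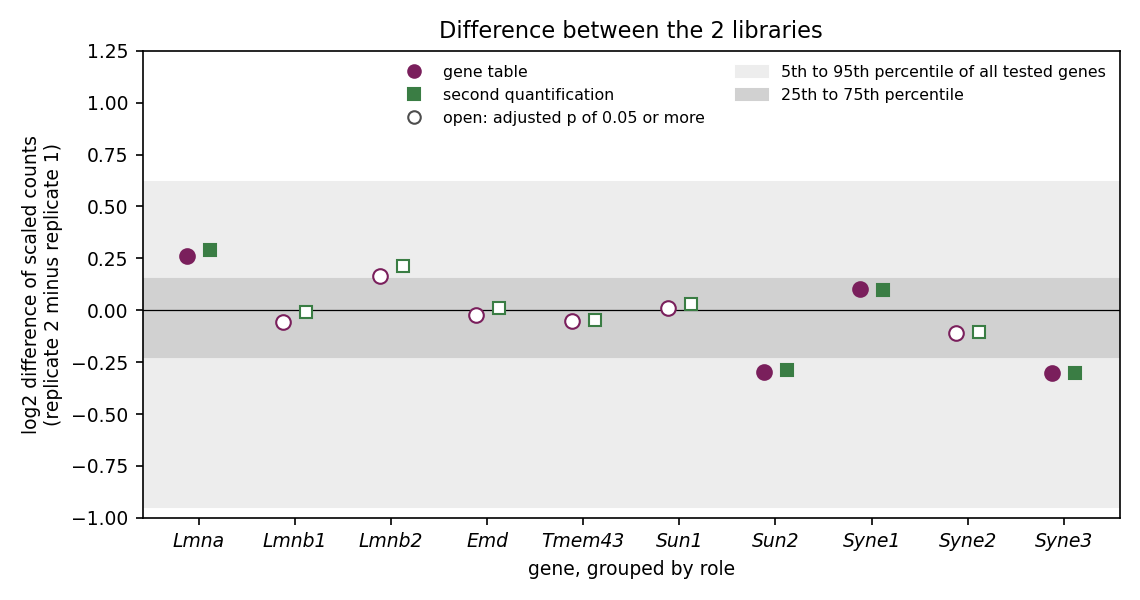
Log2 difference of scaled counts, replicate 2 minus replicate 1, for each member in the gene table (circles) and the second quantification (squares). Filled symbols passed the adjusted p of 0.05, and the grey bands span the 25th to 75th and the 5th to 95th percentile of all tested genes. Lmna and Syne1 are filled above 0, at 0.26 and 0.10, and Sun2 and Syne3 below it, both at -0.30.

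A further 42 genes that work beside the lamina and the LINC complex were listed in 6 groups. Of these, 40 could be tested: 5 were higher in replicate 2, 7 were higher in replicate 1, and 28 did not pass, so that 30% of the 40 passed against 21.5% of all genes. Among all genes with at least 643 counts 35.3% passed, and the 40 lay on both sides of that depth.

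Among the 8 inner membrane and lamina partners, all at 1 TPM or more in both libraries, 1 was higher in replicate 2, 1 was higher in replicate 1 and 6 did not pass. Banf1, which encodes the DNA-bridging protein BAF, was the highest at 52.88 TPM in replicate 2 and 55.46 in replicate 1. Tmpo, which encodes the LAP2 proteins, had 21.97 TPM in replicate 2 and 30.10 in replicate 1 and was lower in replicate 2 (log2 difference -0.35, adjusted p = 5.5e-12, exact binomial test). Tmem201, which encodes SAMP1, had 15.92 TPM in replicate 2 and 16.82 in replicate 1.

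All 5 genes of lamin processing were measured, and 1 passed. The farnesyltransferase subunits were at 19.57 TPM in replicate 2 and 21.05 in replicate 1 (Fnta) and at 7.07 TPM in replicate 2 and 9.04 in replicate 1 (Fntb). Fntb was lower in replicate 2 (log2 difference -0.34, adjusted p = 0.00073, exact binomial test). Zmpste24, the protease that trims prelamin A, had 8.42 TPM in replicate 2 and 7.75 in replicate 1 and did not pass (adjusted p = 0.098, exact binomial test; 0.041 in the second quantification).

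Of the 6 torsins and cofactors 1 passed. The highest were Tor1aip1, which encodes the lamina-associated torsin activator LAP1, at 30.57 TPM in replicate 2 and 35.44 in replicate 1, Tor1aip2 at 24.49 and 22.36 TPM, and Tor1b at 7.97 and 7.99 TPM in replicates 2 and 1. Tor1a, the AAA+ ATPase torsinA, had 116 counts in replicate 2 and 182 counts in replicate 1 and was lower in replicate 2 (log2 difference -0.50, adjusted p = 0.021, exact binomial test).

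The 6 nuclear envelope proteins of muscle included the highest levels of the envelope genes. Tmem38a, a cation channel of the sarcoplasmic reticulum and nuclear envelope, had 547.2 TPM in replicate 2 and 560.8 in replicate 1 and did not pass (log2 difference 0.03, adjusted p = 0.068, exact binomial test; 9e-05 in the second quantification). Mlip, whose product binds lamin A/C, had 41.61 TPM in replicate 2 and 46.60 in replicate 1 and was lower in replicate 2 (log2 difference -0.15, adjusted p = 0.0041, exact binomial test). Plpp7, also called NET39, had 44.32 TPM in replicate 2 and 39.50 in replicate 1 and was higher in replicate 2 (log2 difference 0.23, adjusted p = 1.6e-06, exact binomial test). The other 3 did not pass either.

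Among the 12 cytoplasmic partners of nesprins 3 were higher in replicate 2, 3 were higher in replicate 1 and 6 did not pass. Plec, which encodes plectin, the partner of nesprin-3, had 235.2 TPM in replicate 2 and 249.9 in replicate 1, and its small difference (log2 -0.02, adjusted p = 0.026, exact binomial test) did not pass in the second quantification (adjusted p = 0.61). Kif5b, the kinesin-1 heavy chain, had 61.19 TPM in replicate 2 and 57.99 in replicate 1 and was higher in replicate 2 (log2 0.12, adjusted p = 9.9e-08, exact binomial test). Dync1h1, the dynein heavy chain, had 30.83 TPM in replicate 2 and 31.48 in replicate 1 and was lower in replicate 2 (log2 -0.08, adjusted p = 0.00066, exact binomial test). Pcnt, which encodes the microtubule-organising protein pericentrin, had 23.21 TPM in replicate 2 and 32.20 in replicate 1 and was lower in replicate 2 by more (log2 -0.35, adjusted p = 1.5e-30, exact binomial test).

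The 5 SUN and KASH genes of germ cells and other restricted tissues stayed under 1 TPM. Sun3 and Sun5, known from the testis, had 0 counts in both libraries, which allows up to 0.0804 CPM in replicate 2 and 0.0735 in replicate 1. Spag4 had 0.15 TPM in replicate 2 and 0.39 in replicate 1, Syne4 had 0.37 and 0.50 TPM, and Ccdc155, the meiotic KASH5 gene, had 0.89 and 0.97 TPM in replicates 2 and 1. None of the 3 tested passed.

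**Figure D5:**
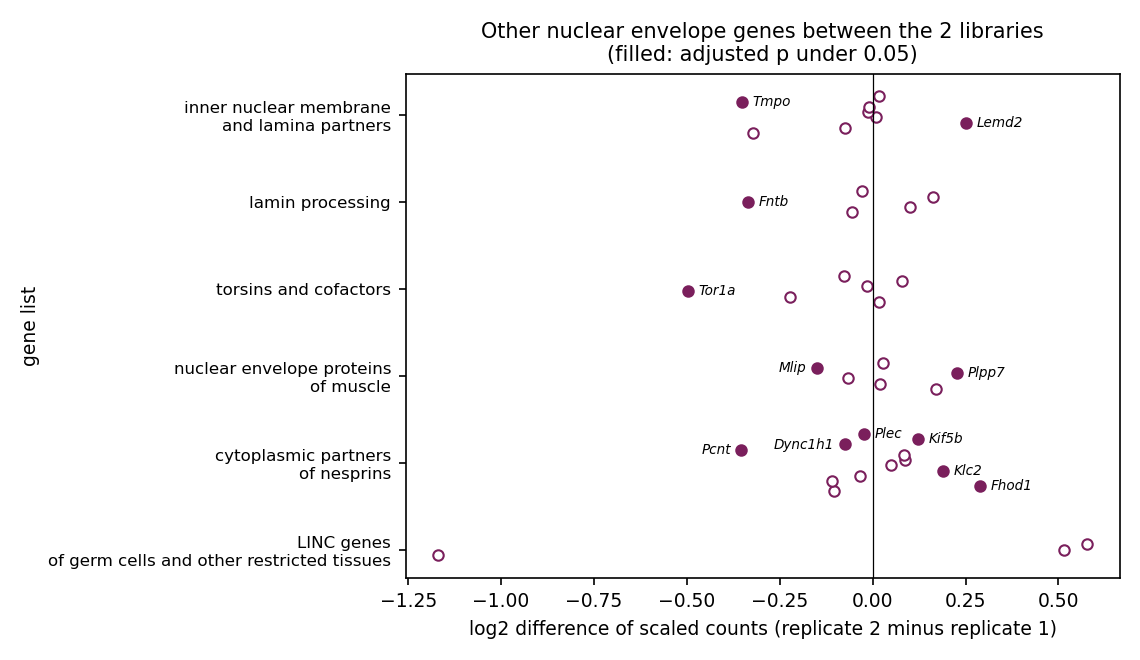
Log2 difference of scaled counts, replicate 2 minus replicate 1, for the 40 tested genes of 6 lists, with 1 row per list and 1 circle per gene. Filled circles passed the adjusted p of 0.05 and carry their name: 5 lie right of 0 and 7 left of it. The 3 open circles of the lowest row, the furthest from 0, are genes with few counts.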

How the data were processed

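Total RNA-seq of 2 gastrocnemius libraries was analysed. The authors deposited, per sample, a gene table and a transcript table made from alignments to transcripts (estimated counts, TPM and the quantifier's intervals) and a second transcript table of estimated counts and TPM made directly from reads, per the file headers. The build is mm10 (GRCm38) with GENCODE M21, per the labels and the files' gene versions. Which programs made the tables is not given in the sources used here. Counts of the annotated genes rest on the reference annotation, and how reads of the CAST/EiJ allele fared was not tested.

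From these, estimated counts were rounded, scaled by TMM (edgeR 4.0.16, R 4.3.3) and compared by an exact binomial test (SciPy 1.17.1). The test covers counting error in these libraries only. It was checked on simulated counts that held counting error alone, which cannot show how it behaves under further spread between libraries. Means and SDs are over 2 libraries. Transcript classes, coordinates and coding sequences come from GENCODE M21. Entries other than annotated genes (26248 numeric entries and 97 added RNAs) were left out of the test. All 10 members are named, with transcripts holding at least 5% of their gene in either quantification. Of each list the 3 highest genes by mean TPM are named, and the gene with the largest difference among those that passed. Sun3 and Sun5 were named outside this rule for their 0 counts. Second values of Plec, Zmpste24 and Tmem38a were given because the outcome differed. The members and lists were chosen with earlier results of these data known. Alternatives were the second quantification, other scalings (total counts, DESeq2 1.42.0 size factors, ERCC totals), no minimum count, a pseudocount of 1 TPM, other TPM denominators, counts in place of TPM, and each library left out.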

Additional observations from a re-analysis of the deposited data

How the results depend on the processing

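No paired analysis was possible because the series holds 1 group. In the second quantification 4 members passed, against 21.5% of all tested genes, and with DESeq2 size factors 4, against 21.4%. Total-count scaling gave 5 members against 20.9% of all genes, and no minimum count gave 3 against 13.9%. With ERCC totals 8 members passed, against 52.5% of all genes. Under that scaling Lmna (-0.030), Lmnb2 (-0.13), Sun1 (-0.28) and Syne1 (-0.19) changed sign on the log2 scale. Sun1 also changed sign with total counts (-0.011), and Emd in the second quantification (0.0088). Total counts added Syne2 (adjusted p = 0.044, exact binomial test) and no minimum count lost Syne3.

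In the second quantification the log2 ratio of Lmna over the B-type lamins moved from 2.47 to 2.88. Over whole genes, Sun2 over Sun1 moved from 1.13 to 0.53 and nesprins over SUN genes from -0.55 to -0.92. Lmna-201 over Lmna-203 moved from -0.76 to -0.16 and Syne1-202 over Syne1-205 from 0.96 to 0.63. Lamin A's share moved to 22.1% there and to 46.1% by counts. The short Syne1 share moved to 47.9% there and to 17.7% by counts. The full-length Syne2 share moved to 71.4% by counts and to 37.1% over protein-coding transcripts. The cause was not tested, except that counts weight transcripts by length and that dropping transcripts shrinks the denominator. With 2 libraries, leaving either out gives the value of the other, which says nothing about stability. The log2 ratios of the transcript pairs in single libraries ranged from -0.98 to -0.55 for Lmna-201 over Lmna-203 and from 0.83 to 1.09 for Syne1-202 over Syne1-205. Those transcript ratios, and levels over transcripts with a complete coding sequence, were chosen after seeing the data. By the last measure the second quantification exceeded the main one by 1.12 to 1.40 times. With TPM taken over nuclear protein-coding genes alone, every member's level rose, Lmna to a mean of 127.2 and Syne1 to 45.5. A pseudocount of 1 TPM moved 3 log2 ratios beyond their SD, and 7 stayed within it. Lmna over Lmnb2 went from 3.74 to 3.47, Syne1 over Syne3 from 3.19 to 2.74 and Syne2 over Syne3 from 1.79 to 1.45.

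With 2 libraries of 1 group, every SD rests on 2 values. TPM of short fragments rests on few counts. For transcripts of several members, the division of reads within the gene differed between quantifications more than between libraries. Among them were Lmna-206, Lmna-202, Lmnb1-202, Lmnb2-201, Lmnb2-204, Emd-206, Tmem43-203, Sun1-212, Sun1-219, Sun2-209 and Syne2-211.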
